A study of Mus musculus with 33 samples.

Results

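The transcripts of 10 genes that mark reactive astrocytes, *Gfap*, *Vim*, *Serpina3n*, *Lcn2*, *Cd44*, *Osmr*, *Steap4*, *S1pr3*, *Timp1* and *S100a6*, were followed in the mouse hypothalamus after ovariectomy (OVX). They were taken by name, not by a threshold on their values, although earlier results of these data were known, and are 10 of the 41565 named genes in the table. Bulk RNA-seq was made from the posterior hypothalamus (PH) and the preoptic area (POA) of WT C57BL/6 female mice. Intact mice, killed before OVX in diestrus, gave 4 PH and 5 POA libraries. Mice killed 14 days or 4 months after OVX, which was done in adults, gave 6 libraries of each region at each time. No intact group was matched in age to the 4-month group, so time after OVX and age cannot be told apart.

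Astrocytes answer injury, infection and many chronic disturbances by becoming reactive. They then raise the intermediate filament proteins GFAP and vimentin and a set of secreted and membrane proteins, in part through STAT3, which is activated by cytokines of the IL-6 family. In the hypothalamus, astrocytes line the vessels and synapses of the neurons that control temperature, feeding and reproduction, and they carry estrogen receptors. None of the 10 transcripts is made by astrocytes alone: vimentin is also a protein of ependymal cells, tanycytes, endothelium and fibroblasts, and CD44 and S100A6 are found in several of these. In bulk tissue, more cells of a type and more RNA per cell cannot be told apart.

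Values are the deposited normalized signal on a linear scale, whose lowest common level, shared by genes that were not detected, is a floor of 22.2. A gene was tested where it reached 2 times this floor in at least 4 PH or 5 POA libraries. *Gfap*, *Vim*, *Serpina3n*, *Cd44*, *Osmr*, *S1pr3* and *S100a6* passed it in all 33 libraries. *Steap4* passed in 15 of 16 PH and 13 of 17 POA libraries, *Timp1* in 7 and 9, and *Lcn2* in 3 and 6, so that *Lcn2* was tested in the POA but not in the PH. The POA libraries in which *Lcn2* passed were 1 intact, 2 at 14 days and 3 at 4 months, so it was tested there mainly through the OVX groups. Levels were not compared between the regions, because 108 genes at the floor followed 1 line over the libraries and 83.5% of the variance of this component lay between the regions. The sum of all values was between 44534053 and 72945400 per library, and the depth in reads is unknown. The highest sum was that of 1 PH library 14 days after OVX (replicate 5). Another library stood apart in its cell types: replicate 6 of the POA at 14 days, described with the results that rest on it. All 14 markers of resting astrocytes, among them *Aldh1l1*, *Slc1a2* and *Aqp4*, were measured above the filter in every library.

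Within the intact PH, the signal above the floor per kilobase of transcript fell in the order *Gfap* (2601 ± 556, SD, n = 4), *Vim* (687 ± 36.5), *Serpina3n* (369 ± 42.7), *S100a6* (331 ± 45.5), *S1pr3* (89.9 ± 9.07), *Cd44* (66.3 ± 15.6), *Osmr* (35.4 ± 2.21), *Timp1* (23.1 ± 4.11), *Lcn2* (11.8 ± 7.91) and *Steap4* (10.2 ± 2.30). *Serpina3n* and *S100a6* were closer to each other than the sum of their SDs, as were *S1pr3* and *Cd44*, *Timp1* and *Lcn2*, and *Lcn2* and *Steap4*. The intact POA had the same first 8 genes in this order, from *Gfap* at 2986 ± 286 (n = 5) down to *Timp1* at 22.1 ± 5.94, whereas *Steap4* (8.29 ± 2.43) stood above *Lcn2* (7.77 ± 12.5). There *Osmr* and *Timp1*, and *Steap4* and *Lcn2*, were the neighbors closer than the sum of their SDs.

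After OVX, none of the 10 genes changed at an adjusted *P* under 0.05 (limma, Benjamini-Hochberg over all genes tested) in any of 8 comparisons: 14 days and 4 months against intact and against each other in each region, and the difference of each change between the regions. Few genes of any kind did in these fits. Those called were 0% of 21949 genes in the PH at 14 days, 0.0319% in the PH at 4 months, 0.00911% between the PH times, 0.00469% of 21317 genes in the POA at 14 days, 0.0938% in the POA at 4 months and 0.0281% between the POA times. Between the regions they were 0.00436% and 0.00871% of 22960 genes at 14 days and 4 months. The authors' DESeq2 fits, made on counts, called more genes against intact at the same threshold, in each region at both times. Most of the 10 genes nevertheless lay above 0 on the log2 scale against intact. In the PH these were 7 of 9 tested at 14 days, with a median log2 fold change of 0.13 against −0.00 over all genes, and 7 of 9 at 4 months, with 0.27 against −0.01. In the POA they were 10 of 10 at 14 days, with *Cd44* at 0.00 and a median of 0.17 (7 of 10 and 0.09 without replicate 6), and 9 of 10 at 4 months, with 0.12. These POA counts include *Lcn2*, which passed the filter mainly through OVX libraries, so its sign there is not evidence. Over all genes tested, 49.4% and 47.2% of the PH and 47.8% and 46.5% of the POA changes were above 0. The 2 contrasts of a region share their intact libraries, so their signs are not separate evidence.

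**Figure D1:**
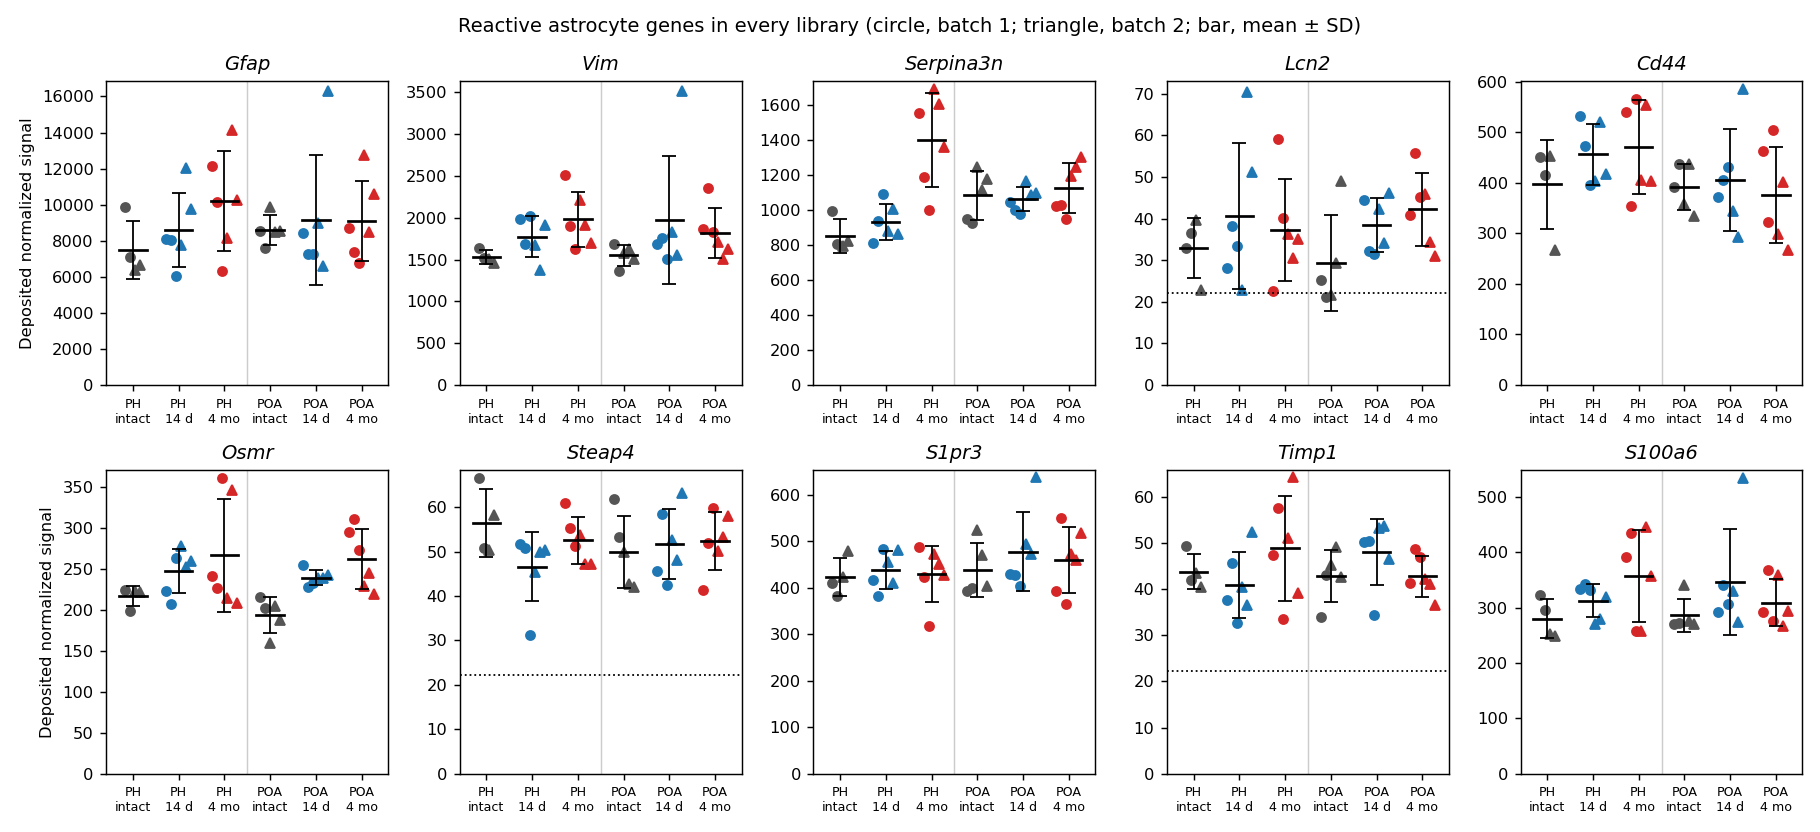
Deposited normalized signal of the 10 reactive astrocyte genes (vertical axes, linear from 0) in each of the 33 libraries, by region and group, with the mean ± SD as a black bar and the floor of 22.2 as a dotted line in the panels of *Lcn2*, *Steap4* and *Timp1*. All 6 PH libraries at 4 months lie above the 4 intact ones for *Serpina3n*, and 1 POA library at 14 days is far above the others for *Gfap*, *Vim* and *S100a6*.

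**Figure D2:**
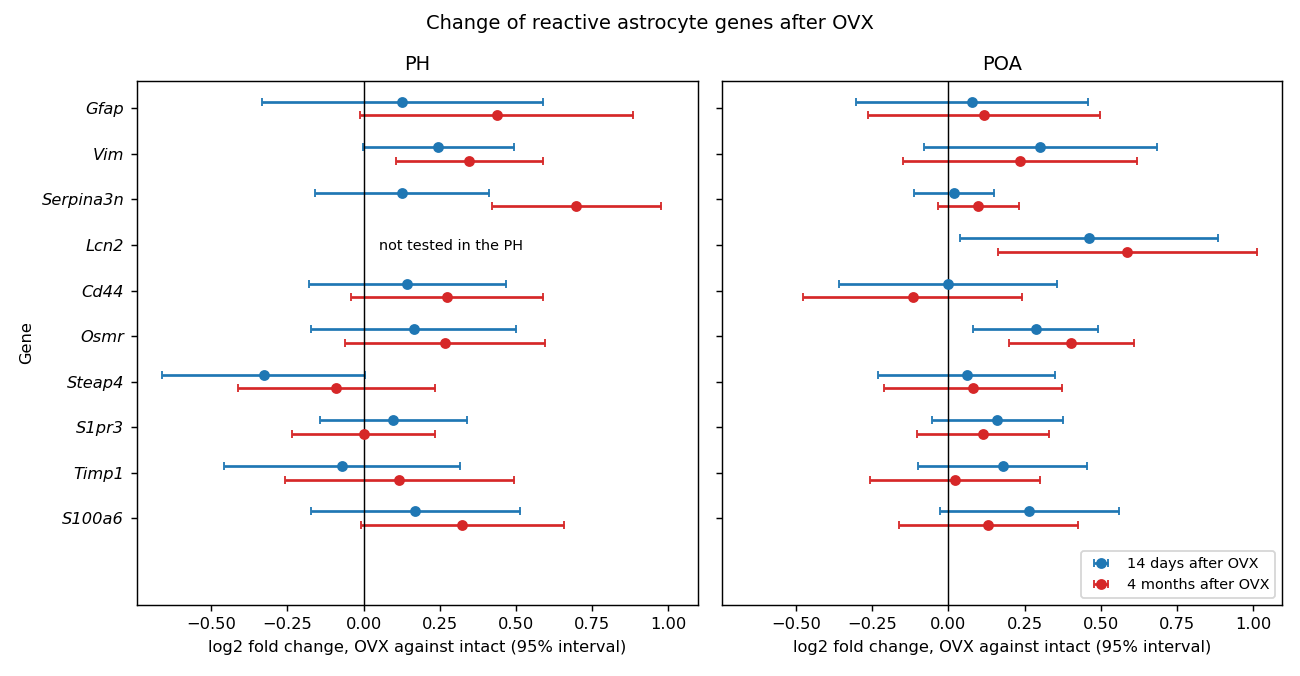
Log2 fold change of each gene against intact mice (horizontal axes) in the PH and the POA, with the 95% interval of the limma fit as a bar, at 14 days (blue) and 4 months (red) after OVX. The interval that lies furthest from 0 is that of *Serpina3n* in the PH at 4 months, from 0.42 to 0.98, whereas most others cross 0.

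*Serpina3n* encodes a secreted inhibitor of serine proteases and is among the transcripts that reactive astrocytes raise most. It was the member with the smallest *P* in the PH. In intact mice the 4 libraries were at 996, 803, 792 and 820, and 14 days after OVX the 6 were at 813, 939, 1089, 881, 1007 and 862. At 4 months they were at 1555, 1187, 1001, 1689, 1606 and 1359. The 4-month libraries thus lay above every intact library in 6 of 6, which 0.551% of all genes also did, while the 14-day group overlapped the intact one. The lowest of them, replicate 3, was above the highest intact library by less than the spread of either group. At 4 months the log2 fold change was 0.70 (SE 0.13, adjusted *P* = 0.0840), and its *P* ranked 11 of 21949. At 14 days it was 0.13 (SE 0.14, adjusted *P* = 0.9998). Between 14 days and 4 months it was 0.57 (SE 0.13, adjusted *P* = 0.302), with 5 of 6 libraries above every 14-day library.

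The call for *Serpina3n* in the PH turned on 1 library. Without replicate 3 of the 4-month group the log2 fold change was 0.81 (SE 0.11) with an adjusted *P* of 0.00572, and over all alternatives the adjusted *P* lay between 0.00572 and 0.330. In that library 8 ependymal markers lay on average 0.59 below the median of the region's libraries on the log2 scale and *Gfap*, *Cd44* and *Osmr* were at 6325, 565 and 361; the part of these cells in the result was not tested. Within batch 1 the difference of mean log2 values was 0.46 (3 against 2 libraries) and within batch 2 it was 0.94, with 3 of 3 libraries above the intact ones in both. In the POA, *Serpina3n* showed no such separation over both batches together. Intact libraries lay between 927 and 1246 (median 1114), 14-day libraries between 979 and 1164 (median 1066), and 4-month libraries between 950 and 1304 (median 1110), and the groups overlapped. The log2 fold change was 0.02 (95% interval −0.11 to 0.15) at 14 days and 0.10 (−0.03 to 0.23) at 4 months. Within batches 1 and 2 the POA differences were 0.10 and −0.08 at 14 days and 0.09 and 0.08 at 4 months. In batch 1, 3 of 3 libraries were above the intact ones at both times. In batch 2, 0 of 3 were at 14 days and 2 of 3 at 4 months. The 4-month log2 fold change was larger in the PH than in the POA by 0.61 (SE 0.16, adjusted *P* = 0.911) and the *P* of this difference ranked 10 of 22960, so the difference between the regions did not pass. That fit took the PH and POA libraries as independent, although both regions were collected from the same mice.

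*Serpina3n* lies on chromosome 12 of GRCm39 (104372810 to 104380597, plus strand, 5 exons in the canonical transcript) in a cluster of closely related serpin genes, so its reads could in part be shared. Of the 2202 windows of 50 bases, the read length, in its transcript, 139 (6.31%) also stood in a transcript of another gene, whereas none did for the other 9 genes. The longest run of such windows is shown because it is where reads could be assigned to a relative. It covers bases 1245 to 1347 of the transcript, inside the coding sequence (263 to 1516), and its windows recur in *Serpina3g*, the pseudogene *Serpina3e-ps* and *Gm56487*:
Serpina3n shared stretch: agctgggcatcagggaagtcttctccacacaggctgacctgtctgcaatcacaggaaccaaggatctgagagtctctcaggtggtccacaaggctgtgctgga
Of the relatives that share this stretch, *Serpina3g* was at 72.5 ± 7.23 in the intact PH (n = 4) and 82.4 ± 14.1 at 4 months (n = 6), and *Serpina3e-ps* was at 25.1 ± 3.40 and 24.6 ± 2.67, against 853 ± 96.2 and 1400 ± 267 for *Serpina3n*. *Gm56487* was not found by that name in the deposited values, so its signal could not be read.

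The promoters of *Serpina3n* and *Osmr* are shown because all OVX libraries lay above every intact one for *Serpina3n* in the PH at 4 months and for *Osmr* in the POA at both times. Each is the 250 bases before the start of the canonical GENCODE transcript, read 5′ to 3′ on the strand of the gene, at chr12:104372560-104372809 (plus strand) and chr15:6904451-6904700 (minus strand) of GRCm39:
Serpina3n promoter: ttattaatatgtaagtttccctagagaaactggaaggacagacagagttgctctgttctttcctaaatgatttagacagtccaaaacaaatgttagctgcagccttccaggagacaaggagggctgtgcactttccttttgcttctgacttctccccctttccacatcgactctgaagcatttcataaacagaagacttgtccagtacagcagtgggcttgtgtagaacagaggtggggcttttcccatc
Osmr promoter: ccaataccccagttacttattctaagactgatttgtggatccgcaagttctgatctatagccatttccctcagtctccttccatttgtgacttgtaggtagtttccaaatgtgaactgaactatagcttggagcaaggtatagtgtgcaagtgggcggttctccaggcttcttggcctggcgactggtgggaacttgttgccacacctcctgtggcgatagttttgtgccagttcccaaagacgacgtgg
Both strands were searched for TTCNNNGAA, the pattern bound by STAT factors, for its stricter form TTCCNGGAA, whose matches all overlap those of TTCNNNGAA, and for TGANTCA, the AP-1 pattern. These stood in 7.70%, 0.942% and 6.18% of 21757 protein-coding promoters of this length and in 0 of those of the 10 genes, so no letters are in capitals.

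The filament genes came next. *Gfap*, on chromosome 11 (102778159 to 102791738, minus strand), encodes the intermediate filament of astrocytes, whose staining is the usual sign of reactivity. In the PH its intact libraries were at 9864, 7075, 6387 and 6683, the 14-day libraries at 8072, 8032, 6060, 7743, 12025 and 9741, and the 4-month libraries at 12165, 10176, 6325, 8174, 14129 and 10264. The groups overlapped, and 4 of 6 libraries at 4 months were above every intact one. For *Gfap* it was 0.13 on the log2 scale (SE 0.22, adjusted *P* = 0.9998) at 14 days and 0.44 (SE 0.21, 95% interval −0.01 to 0.88, adjusted *P* = 0.824) at 4 months. The batches differed, with 0.14 within batch 1 and 0.70 within batch 2 at 4 months, and at 14 days −0.19 and 0.57. Without replicate 3 of the 4-month group the change at 4 months was 0.61 (SE 0.16, adjusted *P* = 0.291).

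*Vim*, on chromosome 2 (13578738 to 13587639, plus strand), encodes vimentin. Its intact PH libraries lay close together at 1642, 1513, 1505 and 1455. Those at 14 days were at 1981, 1686, 2016, 1670, 1376 and 1915 and those at 4 months at 2514, 1903, 1630, 2216, 1909 and 1699. All but 1 library of each OVX group were above every intact library. *Vim* had a log2 fold change of 0.24 (SE 0.12, adjusted *P* = 0.9998) at 14 days and 0.35 (SE 0.11, adjusted *P* = 0.619) at 4 months, with 0.33 and 0.38 within the 2 batches at 4 months. *Vim* and *Serpina3n* were thus the 2 members with an unadjusted *P* under 0.05 upward in the PH at 4 months, which 2.95% of all genes also had.

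In the POA both filament genes were dominated by 1 library. At 14 days *Gfap* was at 16317 in replicate 6 and between 6594 and 9010 in the other 5, and *Vim* was at 3517 against 1509 to 1832. Intact POA libraries were between 7575 and 9878 for *Gfap* and between 1363 and 1681 for *Vim*. With this library the log2 fold change at 14 days was 0.08 (SE 0.18, adjusted *P* = 0.966) for *Gfap* and 0.30 (SE 0.18, adjusted *P* = 0.832) for *Vim*. Without it they were −0.10 (SE 0.14, adjusted *P* = 0.960) and 0.08 (SE 0.10, adjusted *P* = 0.956). At 4 months *Gfap* lay between 6746 and 12734 (median 8577; log2 fold change 0.12, SE 0.18, adjusted *P* = 0.896) and *Vim* between 1505 and 2356 (median 1769; 0.24, SE 0.18, adjusted *P* = 0.753). For *Vim* at 4 months the difference was 0.40 within batch 1 and 0.04 within batch 2.

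The same library also held more of the markers of cells that line the ventricles. On the log2 scale the 8 ependymal markers lay on average 1.04 above the median of the region's libraries and the 7 choroid plexus markers 1.97 above it. The 8 fibroblast and meningeal markers were 0.75 above it, and the 12 neuron markers 0.38 and the 10 oligodendrocyte markers 0.32 below it. The 10 reactive astrocyte genes lay 0.48 above it, whereas the 14 resting astrocyte markers lay 0.03 above it. High choroid plexus markers were not particular to this library. They were higher still in replicate 1 of the intact POA (2.67) and replicate 1 of the POA at 14 days (2.31), where the 10 genes were at −0.12 and 0.02. The summed signal of the ependymal markers above the floor was 13809 in the highest library of the POA at 14 days against a group median of 7116 and an intact range of 6311 to 7400. All 8 ependymal markers were above the filter in every library. What these cells contribute to the levels of *Gfap*, *Vim* and *S100a6* was not tested.

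**Figure D3:**
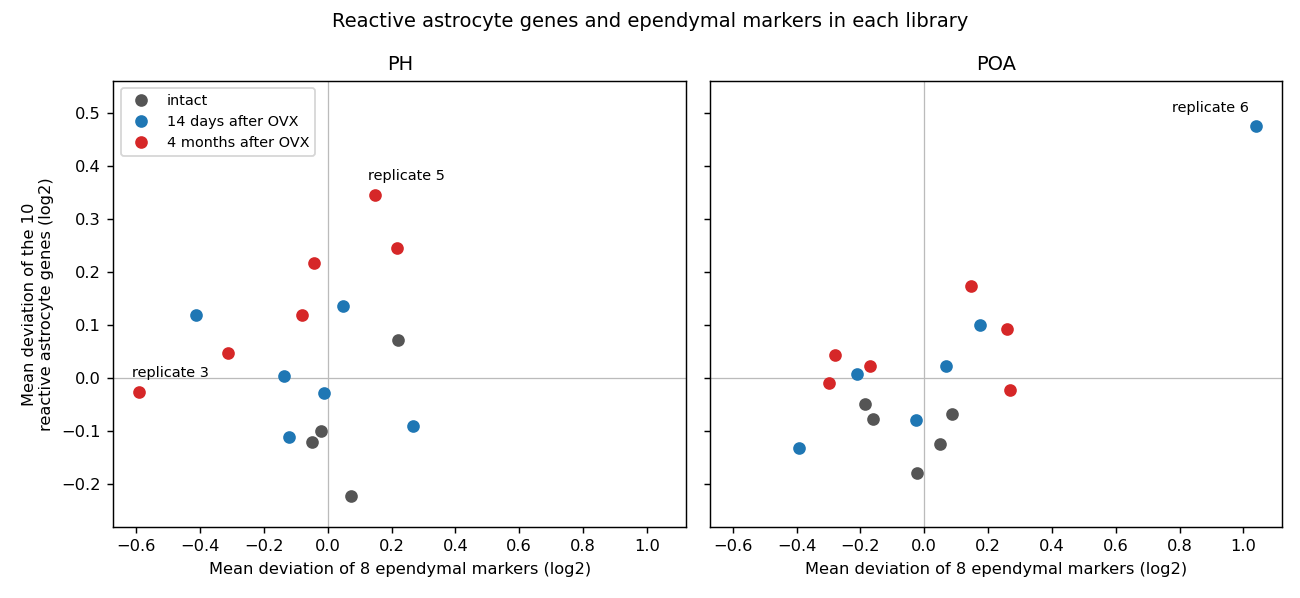
Mean deviation of the 10 reactive astrocyte genes (vertical axis) against that of 8 ependymal markers (horizontal axis) in each library, on the log2 scale and relative to the median of the region, in the PH (left) and the POA (right). In the POA, replicate 6 at 14 days lies at 1.04 and 0.48, far from all others, and in the PH, replicate 3 at 4 months has the lowest ependymal value (−0.59).

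*S100a6*, on chromosome 3 (90520140 to 90535843, plus strand), encodes a small calcium-binding protein of the S100 family. Its PH libraries were at 323, 295, 252 and 249 in intact mice, between 270 and 343 (median 325) at 14 days, and at 391, 435, 257, 258, 446 and 357 at 4 months. At 4 months 4 of 6 were above every intact library, and the log2 fold change was 0.32 (SE 0.16, adjusted *P* = 0.824), with 0.19 and 0.46 within the batches. In the POA, the same replicate 6 was at 535 at 14 days and the other 5 libraries were between 274 and 340. The change at 14 days was 0.27 (SE 0.14, adjusted *P* = 0.818) with it and 0.11 (SE 0.11, adjusted *P* = 0.942) without it, and at 4 months it was 0.13 (SE 0.14, adjusted *P* = 0.837).

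*Osmr* encodes the receptor chain that binds oncostatin M, a cytokine of the IL-6 family that signals through STAT3. It lies on chromosome 15 (6843053 to 6904450, minus strand). It had the smallest *P* of the members in the POA at both times. The intact libraries were at 216, 203, 159, 205 and 187. Those at 14 days were at 255, 228, 233, 239, 240 and 243, and those at 4 months at 296, 311, 273, 230, 245 and 220. At both times 6 of 6 libraries were above every intact library, which 0.263% of all genes also were at 14 days and 0.413% at 4 months. For *Osmr* the log2 fold change was 0.29 (SE 0.10, adjusted *P* = 0.799) at 14 days and 0.40 (SE 0.10, adjusted *P* = 0.171) at 4 months. Within the batches it was 0.19 and 0.40 at 14 days and 0.49 and 0.34 at 4 months, with 3 of 3 libraries above the intact ones in each. Over the alternatives the adjusted *P* at 4 months lay between 0.0722 and 0.748. The genes most like *Osmr* from library to library included the hemoglobin genes *Hbb-bs* (r = 0.709 over 16 PH and 0.723 over 17 POA libraries) and *Hbb-bt* (0.661 and 0.774), named after their values were seen. Differences between the intact and OVX groups were left in these correlations. The summed signal of 4 hemoglobin genes lay between 6785 and 16018 in the intact POA, between 8865 and 16913 at 14 days and between 9270 and 22262 at 4 months, so these groups overlapped. *Hbb-bs* was at 0.55 (SE 0.26, adjusted *P* = 0.806) at 14 days and 0.86 (SE 0.26, adjusted *P* = 0.342) at 4 months, and the part of blood in the values of *Osmr* was not tested. The 2 times did not differ by more than their spread (0.12, SE 0.09, 95% interval −0.08 to 0.31).

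In the PH, *Osmr* was at 224, 199, 223 and 222 in intact mice, between 207 and 278 (median 257) at 14 days, and at 241, 227, 361, 215, 347 and 209 at 4 months. The groups overlapped, and 2 of the 4-month libraries were far above the rest. The log2 fold change was 0.16 (SE 0.16) at 14 days and 0.27 (SE 0.16, adjusted *P* = 0.866) at 4 months. The changes did not differ detectably between the regions (PH minus POA, −0.14 at 4 months, 95% interval −0.51 to 0.22, adjusted *P* = 1).

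*Lcn2*, on chromosome 2 (32274645 to 32278264, minus strand), encodes lipocalin 2, a secreted iron-siderophore binding protein that rises steeply in acute inflammation. Here it stayed near the floor. PH libraries were between 22.7 and 70.4 in all groups. In the POA the intact libraries were at 25.3, 21.1, 21.6, 29.4 and 48.9, those at 14 days between 31.5 and 46.2 (median 38.3), and those at 4 months at 40.9, 55.7, 45.2, 46.0, 34.4 and 31.1. The groups overlapped because of 1 intact library. The log2 fold change was 0.46 (SE 0.20, adjusted *P* = 0.799) at 14 days and 0.59 (SE 0.20, adjusted *P* = 0.385) at 4 months, where it was 1.02 within batch 1 and 0.22 within batch 2. *Lcn2* and *Osmr* were the 2 members with an unadjusted *P* under 0.05 upward in the POA, at 14 days, where 2.83% of all genes had this, and at 4 months, where 4.10% had. The place of *Lcn2* in this count is not evidence, because it passed the filter mainly through OVX libraries. With a pseudocount of 100 its POA changes were 0.10 and 0.14. Without the filter the changes of *Lcn2* in the PH were 0.09 (SE 0.28) and 0.19 (SE 0.27).

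*Cd44*, on chromosome 2 (102641486 to 102732010, minus strand), encodes the receptor for hyaluronan. In the PH the intact libraries were at 450, 416, 453 and 267, the 14-day libraries between 396 and 531 (median 445), and the 4-month libraries between 354 and 565 (median 473). In the POA the groups lay between 333 and 437, 293 and 585, and 267 and 505. All groups overlapped. *Cd44* had PH log2 fold changes of 0.14 (SE 0.15) and 0.27 (SE 0.15, adjusted *P* = 0.856), and POA ones of 0.00 (SE 0.17) and −0.12 (SE 0.17, adjusted *P* = 0.889). Without replicate 4 of the intact PH, its lowest library, the 4-month change was 0.11 (adjusted *P* = 0.974).

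Among the libraries of a region, *Cd44* followed the component at the floor, and no other member did so in both regions. In the POA its log2 value fell as the component rose, with Pearson's r = −0.911 (n = 17, permutation *P* = 1e-05, the smallest that 100000 permutations can give, adjusted *P* = 2e-04 over 20 relations) and Spearman's rho = −0.919 (permutation *P* = 1e-05). In the PH, r was −0.732 (n = 16, permutation *P* = 0.00140, adjusted *P* = 0.00933) and rho −0.779 (permutation *P* = 7e-04). Without the 2 libraries farthest from the median of the component, r was −0.876 and −0.733, and within the batches it was −0.844 and −0.932 in the POA and −0.696 and −0.747 for PH libraries. Of all genes tested, 0.145% in the POA and 4.08% in the PH had a correlation at least as far from 0. *S1pr3* had r = 0.743 in the PH (permutation *P* = 0.00122, adjusted *P* = 0.00933; rho = 0.609, permutation *P* = 0.0142) and 0.282 in the POA (permutation *P* = 0.271). With the component as a second covariate, an alternative added after the values were seen, the change of *Cd44* in the POA at 4 months was 0.03 in place of −0.12.

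**Figure D4:**
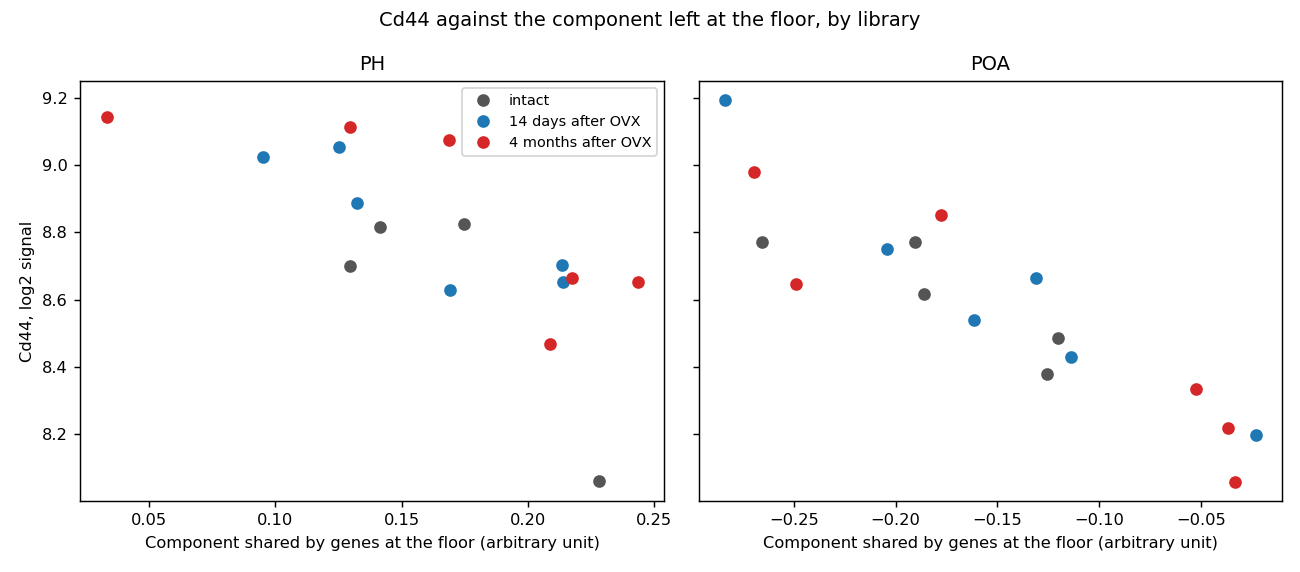
Log2 signal of *Cd44* (vertical axis) against the component shared by 108 genes at the floor (horizontal axis, arbitrary unit) in each PH (left) and POA (right) library, colored by group. The points fall from upper left to lower right in both regions (r = −0.732 and −0.911), and the 3 groups are mixed along the line.

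The other 3 genes, *S1pr3*, *Timp1* and *Steap4*, also overlapped between the groups. *S1pr3*, on chromosome 13 (51561702 to 51576833, plus strand), encodes a receptor for sphingosine-1-phosphate. Its PH values lay between 382 and 478, 382 and 483, and 317 and 487, with log2 fold changes of 0.10 (SE 0.12) and −0.00 (SE 0.11, 95% interval −0.24 to 0.23). In the POA they were 0.16 (SE 0.10) and 0.11 (SE 0.10), with 638 in replicate 6 at 14 days as the highest value. *Timp1*, an inhibitor of metalloproteinases on chromosome X (20736316 to 20740976, plus strand), was between 32.7 and 64.3 in the PH and between 34.0 and 53.6 in the POA. Its log2 fold changes were −0.07 (SE 0.18) and 0.12 (SE 0.18) in the PH and 0.18 (SE 0.13) and 0.02 (SE 0.13) in the POA. *Steap4*, a metalloreductase on chromosome 5 (8010260 to 8032214, plus strand), was the 1 member that was lower at both times in the PH. Its libraries were at 66.7, 50.7, 50.3 and 58.3 in intact mice, at 51.6, 50.9, 31.3, 45.4, 49.98 and 50.4 at 14 days, and between 47.1 and 60.9 (median 52.4) at 4 months. The changes were −0.33 (SE 0.16, adjusted *P* = 0.9998) and −0.09 (SE 0.15), and in the POA they were 0.06 (SE 0.14) and 0.08 (SE 0.14).

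The 10 genes did not vary as 1 unit from library to library. On log2 values centered on region and batch, the pairs *Gfap* and *S100a6* (r = 0.788 over 16 PH and 0.721 over 17 POA libraries) and *Vim* and *S1pr3* (0.662 and 0.750) ran together in both regions. *Vim* and *Serpina3n* did so in the PH (0.696) and not in the POA (−0.169). The centering removed the means of region and batch but not those of the intact and OVX groups. A change after OVX that genes share is therefore part of r, here and in the likenesses below. How much of r it makes up was not tested. These are descriptions over libraries that share dissection, and the POA values include replicate 6. Outside the 10, the protein-coding genes most like each were named from the smaller of the PH and POA correlation among 15847 candidates. For *Gfap* these were *Ccdc3* (0.702 and 0.696), *Gtsf1l*, *Armc3*, *Odad1* and *Cybrd1*. *Armc3* and *Odad1* belong to motile cilia. For *Vim* they were *Ifitm3* (0.807 and 0.810), an interferon-induced antiviral gene, *Ifi27*, *Serping1*, *Tspo* and *H2-Aa*. For *Serpina3n* they were *Selplg* (0.681 and 0.705), *Ctss*, *Mapk3* and *Pcdhga2*, and *Selplg* and *Ctss* are transcripts of microglia. For *Cd44* they were *Irx5* (0.788 and 0.857), *Foxa1*, *Cubn*, *Chrnb3* and *Pthlh*.

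Other genes of the astrocyte response were counted from lists written beside the 10. Of 9 tested genes of the pan-reactive list, 1 rose in each region at 4 months. This was *C4b*, which encodes complement C4, with a log2 fold change of 1.19 (SE 0.12, adjusted *P* = 2.69e-04) for the PH and 0.98 (SE 0.13, adjusted *P* = 0.00303) for the POA. *Fabp7*, a fatty acid binding protein of the astrocyte lineage in the same list, was at −0.47 (SE 0.15, adjusted *P* = 0.619) and −0.43 (SE 0.11, adjusted *P* = 0.220). Of 12 genes of the neuroinflammatory list, 11 were above 0 in the PH at both times and 10 in the POA at both. Their medians at 4 months were 0.39 and 0.36, and 1 gene was called, the matrix gene *Fbln5* in the POA (0.86, SE 0.15, adjusted *P* = 0.0427), which passed in 7 of 17 fits without 1 library. Of 10 tested genes of the ischemia-type list, none was called, and the medians at 4 months were −0.02 and 0.10. *Ptgs2*, the inducible cyclooxygenase, was at 0.82 (SE 0.42, adjusted *P* = 0.838) and 0.78 (SE 0.19, adjusted *P* = 0.199). Among 20 tested inputs of the STAT3 and cytokine list, 17 were above 0 in the PH at 4 months (median 0.14) and 13 in the POA (median 0.06). *C1qa*, a complement gene of microglia, was the 1 called (POA at 4 months, 0.43, SE 0.08, adjusted *P* = 0.0427, passing in 3 of 17 fits without 1 library), and *Stat3* itself was at 0.30 (SE 0.09, adjusted *P* = 0.531) in the PH and 0.09 (SE 0.07, adjusted *P* = 0.776) in the POA.

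Markers of other cells were read beside these values. The 14 resting astrocyte markers had 4-month median log2 fold changes of −0.02 (PH) and −0.03 (POA), with 0 called. Their summed signal lay between 326741 and 388616 in the intact PH and between 336007 and 411459 at 4 months. All 12 microglia markers were above 0 in both regions at both times, with 0 called and 4-month medians of 0.26 (PH) and 0.18 (POA). Their summed signal was 14619 to 15713 in the intact PH and 15826 to 19459 at 4 months, so that these groups did not overlap. In the POA they overlapped, with 14956 to 16292 and 16013 to 19322. The summed signal of the 10 endothelial markers did not overlap in the PH either, with 9213 to 9989 in intact mice and 10908 to 14461 at 4 months. It overlapped in the POA, with 9472 to 10374 and 9454 to 13463. The sums of the 4 hemoglobin genes did not overlap in the PH, with 6291 to 8191 and 11740 to 36520. Those of the pan-reactive list did not overlap in the PH (7014 to 7869 and 8989 to 10374) or the POA (6955 to 8238 and 8640 to 9912). How often sums of other genes separate in this way was not counted. The pan-reactive sums are on the linear scale and include *C4b*, whose part in them was not tested. At 4 months the 9 tested genes of that list had a PH median log2 fold change of 0.12 (−0.47 to 1.19), and 8 were above 0. Their POA median was 0.12 as well (−0.44 to 0.98), but only 6 were above 0. The endothelial markers had medians of 0.26 and 0.15 and the mural markers 0.23 and 0.21 at 4 months, with 0 called. *Kdr* and *Flt1*, the VEGF receptors of endothelium, were at 0.59 (adjusted *P* = 0.163) and 0.59 (0.225) in the PH at 4 months. Their POA values were 0.65 (adjusted *P* = 0.207) and 0.41 (0.146). Ependymal markers were at −0.18 in the PH at 4 months, with 1 of 8 above 0. In the POA at 14 days they were at 0.22, with 8 of 8 above 0, and fibroblast and meningeal markers were at 0.35. Both POA values include replicate 6, where these markers lay 1.04 and 0.75 above the median of the region's libraries. The part of these cell types in the values of the 10 genes was not tested.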

How the data were processed

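Bulk RNA-seq libraries of the PH and POA were analyzed in 6 groups by region and title (33 libraries). The authors made stranded mRNA libraries from flash-frozen tissue, pseudoaligned the reads with kallisto to the mm39 transcriptome and used DESeq2 with surrogate variables. The deposited values are a normalized signal on a linear scale, with 2.12e-04% whole numbers, and how the authors made them is not given in the sources used here. They resemble a variance-stabilized value raised back from log2. Counts and depth cannot be recovered, and counting error is not estimated.

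Log2 values without a pseudocount were fitted with limma (version 3.58.1, R 4.3.3; trend and robust variance) on the 3 groups of a region with 1 surrogate variable (SV1), estimated in base R in 5 rounds. The libraries fall into batches 1 and 2, with 2 or 3 libraries of every group in each. In the POA, SV1 separated them (0.19 to 0.35 in batch 1, −0.32 to −0.125 in batch 2), so SV1 and batch are not separate checks there. In the PH, SV1 was largest in 14-day replicate 5 (0.79), a library of batch 2. The others lay between −0.02 and 0.19 in batch 1 and between −0.31 and −0.16 in batch 2. Apart from that library, SV1 thus separated the batches in the PH as well, so SV1 and batch are not fully separate checks in either region. The regions were compared by an interaction in 1 fit of 33 libraries. The authors collected the PH and POA of the same females, but no label says which 2 libraries share a mouse. The libraries were therefore taken as independent, and the *P* values of the difference between the regions ignore this pairing. Of 16 same-numbered PH and POA libraries, 12 correlated best with their own number within the batch. *P* values were adjusted over all genes tested by the Benjamini-Hochberg method. Entries without a gene name (1259 of 42824) were left out, and 0 columns lacked a sample. The 10 genes, the lists and the tests were chosen with earlier results of these data known. The text names all 10 genes, listed genes that were called or had the 2 smallest *P* values at 4 months in a list, and the 5 genes most like *Gfap*, *Vim*, *Serpina3n* and *Cd44*, of which 1 is not reported here. Loci and sequences are from GRCm39 and GENCODE M39, whereas the authors used another release. Titles call the intact mice sham, and another label calls them intact. The libraries are separate samples, but nothing says that each is 1 mouse, so *P* values measure the spread between these samples. Same-numbered PH and POA libraries, and same-numbered libraries of 2 groups, were not treated as pairs. Alternatives were batch, no covariate, SV1 with batch, with the replicate number or with the floor component, a pseudocount of 100, no filter, and leaving out each library.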

Additional observations from a re-analysis of the deposited data

Results flagged for a closer look

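In groups of 4 to 6 libraries, a library was listed here when its gap to the nearest other, divided by the range of the group, exceeded Dixon's 95% critical value. Of 60 groups of the 10 genes, 8 held such a library. Chance alone gives about 3 in independent groups, but the 10 genes share their libraries, so no excess is read from this. Of the 8, 3 were in replicate 6 of the POA at 14 days, with *Gfap* at 16317, *Vim* at 3517 and *S100a6* at 535, the library in which the ependymal markers were also high. *Serpina3n* was at 996 in replicate 1 of the intact PH, where the others were between 792 and 820. *Osmr* was at 199 in replicate 2 of the intact PH, where the others were between 222 and 224. *Steap4* was at 31.3 in replicate 3 of the PH at 14 days, below 45.4 to 51.6. *Timp1* was at 34.4 in replicate 3 of the POA at 14 days, below 46.6 to 53.6. *S100a6* was at 340 in replicate 3 of the intact POA, above 270 to 275.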

How the results depend on the processing

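No gene of the 10 was called under any alternative in any of the 8 comparisons, except that leaving out 1 library each gave 0 to 1 called in the PH at 4 months, where *Serpina3n* was called without replicate 3 of the 4-month group. Of 2141 log2 fold changes recomputed for 77 main values, 46 changed sign when 1 library was left out and 9, for 4 main values, under the other alternatives, all of them in changes that did not pass the test. *S1pr3* in the PH at 4 months, −0.00, became 0.013 with batch, 0.013 without a covariate, 0.0024 with SV1 and batch, 0.0013 with the pseudocount and 0.021 with SV1 and the floor component. *Serpina3n* in the POA at 14 days, 0.02, became −0.021 without a covariate and −0.0056 with SV1 and batch. *Cd44* in the POA became −0.027 at 14 days with SV1 and the replicate block, and 0.033 at 4 months with SV1 and the floor component, which was added after the data were seen. The cause was not tested.

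Leaving out 1 library each gave these ranges where a sign changed. At 14 days in the PH they were −0.0014 to 0.23 for *Cd44* and −0.16 to 0.028 for *Timp1*. At 4 months they were −0.048 to 0.082 for *S1pr3* in the PH and −0.062 to 0.087 for *Timp1* in the POA. At 14 days in the POA they were −0.18 to 0.087 for *Cd44*, −0.099 to 0.21 for *Gfap*, −0.0078 to 0.052 for *Serpina3n* and −0.014 to 0.16 for *Steap4*. Between the times they were −0.027 to 0.17 for *Osmr* and −0.15 to 0.0060 for *S1pr3* in the PH, and in the POA −0.20 to 0.029 for *Cd44*, −0.084 to 0.19 for *Gfap*, −0.13 to 0.014 for *S1pr3*, −0.034 to 0.088 for *Steap4* and −0.16 to 0.12 for *Vim*. Between the regions at 14 days they were −0.14 to 0.051 for *S100a6*, −0.082 to 0.040 for *S1pr3* and −0.13 to 0.10 for *Vim*.

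Of the changes against intact of at least 0.2 in size, 10 recomputed values kept their direction but moved by over 1.5 times. With SV1 and the replicate block, *Gfap* in the PH at 4 months was 0.25. With the pseudocount, *Steap4* in the PH at 14 days was −0.11 and *Lcn2* in the POA was 0.10 and 0.14. Without 1 library, *Steap4* was −0.21 (PH 14-day replicate 3), *Osmr* in the PH 0.16 (4-month replicate 3), *Cd44* in the PH 0.11 (intact replicate 4) and *Vim* in the POA at 4 months 0.15 (4-month replicate 2), beside *Vim* and *S100a6* without POA 14-day replicate 6.

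The count over all genes moved more. In the POA at 4 months, 20 genes were called, against 2 without a covariate, 8 without the filter, 1 with the replicate block, 82 with the floor component and 4 to 37 without 1 library (37 without 14-day replicate 6). In the PH at 4 months, 7 were called, against 3 with batch, 4 without a covariate or with the pseudocount, 9 with SV1 and batch, 10 with the floor component and 5 to 14 without 1 library (14 without 4-month replicate 3). *C4b* passed in every fit without 1 library in both regions, but its adjusted *P* was 0.0714 with batch in the PH and 0.498 without a covariate in the POA. *Fbln5* and *C1qa* in the POA passed in 4 and 3 of 7 other alternatives, and with the replicate block their adjusted *P* was 0.370 and 0.635, whereas that of *C4b* was 0.0263. The replicate number was not taken as a pairing, since the labels give no shared mouse or day and not every pair deviated together: of 30 same-numbered libraries of 2 groups, 23 did with r over 0.1 (within a batch, 14 of 14 in the POA and 9 of 12 in the PH), and of 16 PH and POA pairs 5 did, although 12 of the 16 correlated best with their own number within the batch. With the block, 0 of the 10 genes were called. Depth in reads is unknown, and the values of *Lcn2*, *Timp1* and *Steap4* lie near the floor.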
